A study of Mus musculus with 4 samples.

Results

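The genes by which liver cells break down amino acids and turn the released nitrogen into urea were followed in liver from female mice of the outbred CD-1 stock after knockdown of Cux2 by small interfering RNA (siRNA). The set holds 47 listed genes in 10 amino acid routes, taken from general knowledge of hepatocyte metabolism. It was chosen with earlier results of these data known, so shares of calls in it are no independent test. Array probes were assigned to them through the RefSeq accession that each probe carries. In this way 43 of the 47 genes were measured, among 25094 genes tested in all. No probe was matched to Cps1, Slc25a15, Amdhd1 or Haao, which are not analysed here. All 43 passed the filter on dim probes, and each was well above background in all 8 channel readings, so no value below is a bound. All mice were 8 weeks old. The treated pools had received Cux2 siRNA and were taken 5 days later (replicate 1 of 3 mice, replicate 2 of 2 mice) or 8 days later (2 pools of 2 mice). The 13 mice given a non-specific siRNA made up 2 pools (6 or 7 mice each in the series text, 6 in every sample description). Each of 4 arrays compared 1 treated pool with 1 control pool. The 4 arrays drew on these 2 control pools, so that pools recur among arrays. The days may share them, but no label says which pool each array carried. The treated pool was labelled with Alexa 647 on replicate 1 and with Alexa 555 on replicate 2 of each day.

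In liver, most amino acids are first stripped of their amino group by a transaminase or a dedicated lyase, dehydratase or oxygenase, and the carbon skeleton is burned or turned into glucose. The nitrogen passes through ammonia and aspartate into the urea cycle, which runs across mitochondria and cytosol of hepatocytes, chiefly those near the portal vein. Many of these enzymes are induced at the level of transcription by glucagon, glucocorticoids and a protein-rich diet. Methionine, cysteine and glycine breakdown is tied to the transfer of methyl groups and to the making of taurine and glutathione.

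Every value is a log2 ratio, Cux2 siRNA over non-specific siRNA, so that -1 is a halved level. Standard errors (SE) and adjusted p-values come from 1 limma fit over the 4 arrays, adjusted by the Benjamini-Hochberg method over all genes tested, and a gene passed at an adjusted p under 0.05. The fit took the 4 arrays as independent, although arrays share control pools. The targeted gene Cux2, a homeobox factor, had day 5 ratios of -1.91 and -1.70, with -1.07 and -1.20 at day 8 (both days -1.47, SE 0.06, adjusted p = 0.000913). Of 8 hepatocyte markers measured, Ttr and Apob fell and 6 did not pass. Their median was 0.20 and -0.68 on the replicates of day 5 and 0.38 and -0.53 on those of day 8, so it changed sign with the replicate. Their summed signal was 1090000 to 1610000 in treated pools and 1090000 to 1780000 in control pools. Markers of macrophages fell in 5 of 7 (summed signal 30400 to 38700 treated, 52300 to 54700 control) and markers of neutrophils in 4 of 6 (1910 to 3610 treated, 12200 to 16600 control). The neutrophil markers had a median of -0.59 over both days, while the log2 ratio of their summed signal was -1.76 to -3.02 on the arrays. Fewer cells of a type and less RNA per cell cannot be told apart in such pools. Of lymphocyte markers 3 of 7 fell, of endothelial markers 3 of 6 fell and 1 rose, and of stellate cell markers 3 of 6 fell and 2 rose. Of 10 measured markers of exocrine pancreas 4 fell. Their medians were -3.00 and -3.89 at day 5, while the day 8 arrays gave 0.58 and -3.69, with summed signals of 11900 to 43800 in treated pools and 28300 to 74800 in control pools. The control sums were 28700 and 28300 on replicate 1 of day 5 and day 8, and 72500 and 74800 on replicate 2, so that they matched by replicate number. The part of these cells in the results below was not tested, beyond the values given.

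Over both days 23 of the 43 genes passed (53.5%), against 31.1% of all genes tested and 35.5% of those whose probe was above background in all readings. Of these 13 rose, against 14.8% of all genes, and 10 fell, against 16.3%. The median of the 43 was 0.08, against 0.00 for all genes tested, with rises and falls side by side in 5 of the 10 routes. Changes were modest: Hgd, Hal and Agxt fell most, to 41.5%, 44.4% and 55.2% of the control level, and Ahcy rose most, to 177%. Hgd and Hal, 2 of the 43, moved by at least 2-fold, against 737 of the 25094 genes tested. By at least 1.5-fold either way 8 of the 43 moved, against 8.77% of all genes. On all 4 arrays 17 of the 43 lay above 0 (26.4% of all genes) and 12 below it (26.1%), together 52.4% of all genes, and all 23 that passed were among them. None of the 23 changed direction under the 12 alternative settings tried. Fits with an array left out could not have shown such a change, since all 23 had the same sign on all 4 arrays. Centring each array on its median in place of loess normalization left 0 of them called. The means stayed close under that setting, at -1.26 for Hgd, -1.16 for Hal, -0.83 for Agxt and 0.81 for Ahcy (adjusted p of 0.161, 0.22, 0.359 and 0.143). Under the 11 other settings 10 of the 23 kept their call in each, namely Hgd, Hal, Agxt, Sds and Gldc among the falls and Ahcy, Afmid, Asl, Csad and Dbt among the rises. The count was 12 without day 5 replicate 2 and 15 without day 8 replicate 2.

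**Figure D1:**
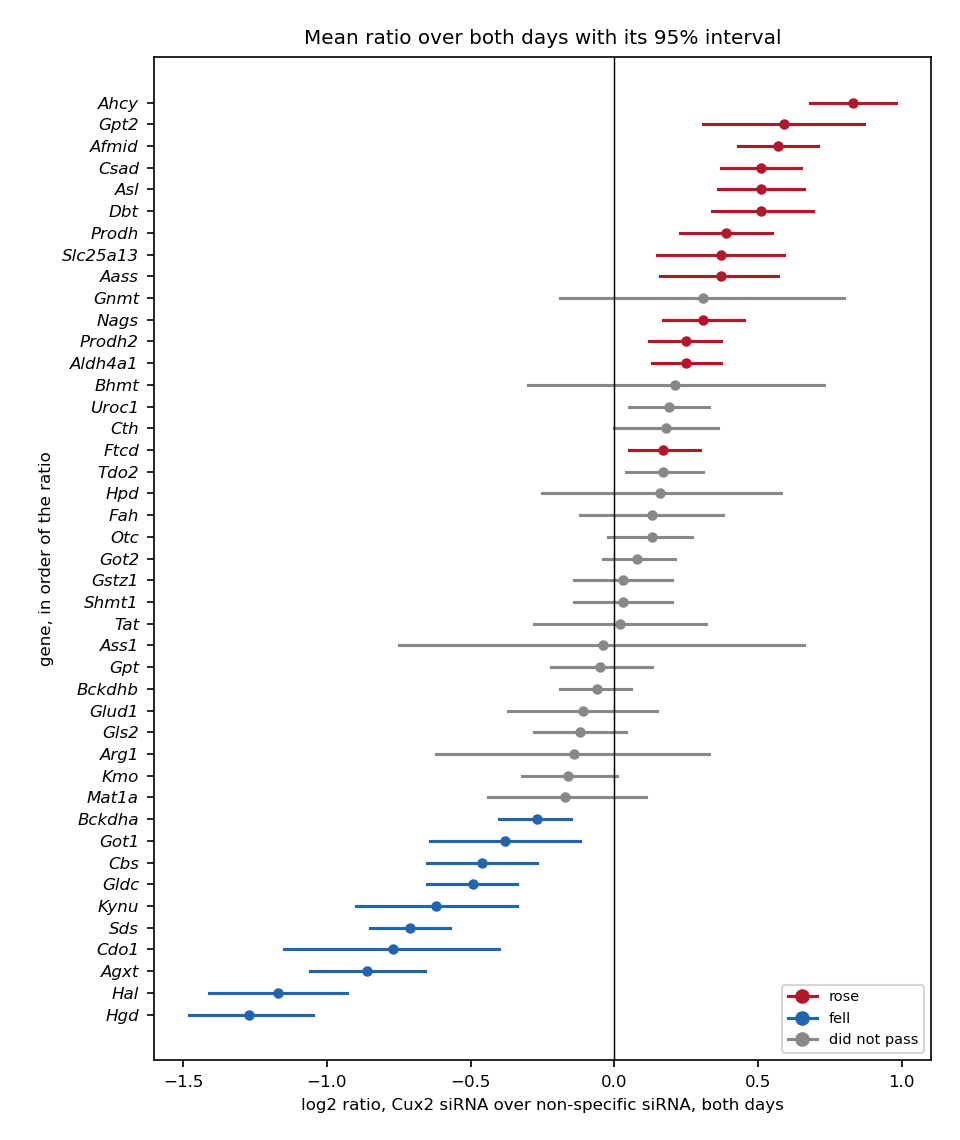
Mean log2 ratio (Cux2 siRNA over non-specific siRNA) over both days for the 43 measured genes, in order of size, with lines for the 95% interval from the limma fit over 4 arrays. The 10 falls reach -1.27 (Hgd) and the 13 rises reach 0.83 (Ahcy), and the widest intervals belong to Ass1, Bhmt, Gnmt and Arg1, none of which passed.

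**Figure D2:**
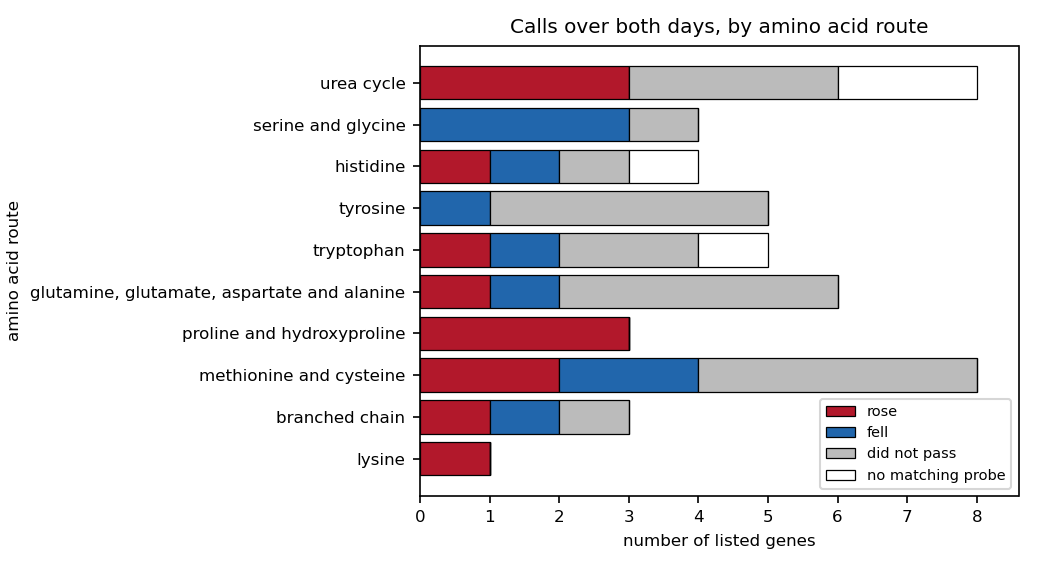
Number of listed genes in each amino acid route that rose, fell or did not pass over both days, or had no matching probe. Proline genes rose in 3 of 3 and serine and glycine genes fell in 3 of 4, while the other routes with more than 1 gene held rises without falls (urea cycle), a fall without rises (tyrosine) or both.

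Promoter sequences are shown for the 3 genes with the largest falls and the 3 with the largest rises that had a single entry among the RefSeq promoter windows (build GRCm38.p6), so that the sequence before the start of the genes that moved most can be read. The windows run from 250 bases before to 50 after the annotated start, and 36 of the 47 genes had at least 1. The 150 bases just before the start are printed 5′ to 3′ on the strand of the gene, in lower case, with capitals on matches to the 5 short motifs described below, of 6 searched by letters on either strand. They come from chr16:37580003-37580152 (plus strand) for Hgd, chr10:93488618-93488767 (plus strand) for Hal, chr1:93135090-93135239 (plus strand) for Agxt, chr2:155074498-155074647 (minus strand) for Ahcy, chr8:85492426-85492575 (plus strand) for Gpt2 and chr11:117825769-117825918 (plus strand) for Afmid.
Hgd: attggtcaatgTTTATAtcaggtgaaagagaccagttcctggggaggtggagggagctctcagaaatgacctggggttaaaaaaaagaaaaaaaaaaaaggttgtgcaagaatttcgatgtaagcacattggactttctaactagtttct
Hal: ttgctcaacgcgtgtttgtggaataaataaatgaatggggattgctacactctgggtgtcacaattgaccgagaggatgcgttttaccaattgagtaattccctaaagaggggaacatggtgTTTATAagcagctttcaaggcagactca
Agxt: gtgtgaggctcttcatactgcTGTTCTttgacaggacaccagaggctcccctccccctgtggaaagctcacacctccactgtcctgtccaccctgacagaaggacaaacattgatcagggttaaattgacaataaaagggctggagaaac
Ahcy: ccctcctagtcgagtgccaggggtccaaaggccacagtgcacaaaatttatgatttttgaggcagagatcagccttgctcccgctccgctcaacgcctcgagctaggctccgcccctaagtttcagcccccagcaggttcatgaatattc
Gpt2: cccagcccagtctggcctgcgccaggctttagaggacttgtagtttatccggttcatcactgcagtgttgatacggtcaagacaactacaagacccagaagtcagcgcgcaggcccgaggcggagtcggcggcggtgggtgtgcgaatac
Afmid: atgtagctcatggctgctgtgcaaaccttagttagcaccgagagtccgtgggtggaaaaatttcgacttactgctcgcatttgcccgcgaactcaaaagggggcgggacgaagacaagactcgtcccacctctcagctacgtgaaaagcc

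The capitals mark TATAAA, the TATA box, read on the other strand in Hgd and Hal (the letters TTTATA), and TGTTCT, known from glucocorticoid receptor sites, in Agxt. In Hal the match begins 28 bases before the start, and in Hgd 139 bases before it. The printed stretches of Ahcy, Gpt2 and Afmid held none of the 5. The letters ATCGAT, known from CUX1 sites, occurred in 0 of the 40 windows of the 36 genes and in 0.925% of all 32851 windows. TGACGT, the core of cyclic AMP response elements, was in 2 of the 40 windows (Aass and Csad, both of which rose) and in 7.51% of all windows. TTGCG, known from C/EBP sites, was in 3 (17.4% of all), TGTTCT in 4 (19.0% of all) and TATAAA in 5 (12.5%, against 13.6% of all). Each motif was searched on both strands, and none of the 5 contains another. These 5 are not all that were searched, so their shares give no picture of the promoters as a whole. A match is a description of these letters, and its absence says nothing about a factor at other sites.

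In the urea cycle 3 of 6 measured genes rose, none fell and 3 did not pass. Argininosuccinate lyase (Asl), which splits argininosuccinate into arginine and fumarate, had day 5 ratios of 0.44 and 0.36, with 0.52 and 0.72 at day 8, and rose by 0.51 over both days (SE 0.06, adjusted p = 0.00521). Nags, which makes the activator that the carbamoyl phosphate synthetase needs, had 0.36 and 0.22, then 0.39 and 0.28, and rose by 0.31 (SE 0.05, adjusted p = 0.0147). Slc25a13, the mitochondrial carrier that exports aspartate for the cycle, had 0.10 and 0.39, then 0.34 and 0.66, and rose by 0.37 (SE 0.08, adjusted p = 0.0303). On all 4 arrays these 3 genes lay above 0. Ornithine transcarbamylase (Otc), which makes citrulline, lay at 0.13 (95% interval -0.02 to 0.27, adjusted p = 0.159). Ass1, which joins citrulline to aspartate, and Arg1, the arginase that releases urea, split by replicate. Ass1 had 0.44 and 0.64 on replicate 1 of day 5 and day 8 and -0.85 and -0.40 on replicate 2, with a mean of -0.04 (interval -0.75 to 0.66). Arg1 had 0.05 and 0.42 on replicate 1 and -0.58 and -0.47 on replicate 2, with a mean of -0.14 (interval -0.62 to 0.33). No direction can be given for either of these from 4 arrays. The Nags call (adjusted p of 0.00454 to 0.649 over the 12 settings) was lost without day 5 replicate 1 (0.0724), day 5 replicate 2 (0.0511) or day 8 replicate 1 (0.0629). The Slc25a13 call (0.00283 to 0.445) was lost without day 5 replicate 2 (0.119) or day 8 replicate 2 (0.106).

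Among the routes, that of serine and glycine had the largest share of falls, with 3 of 4 genes. Serine dehydratase (Sds), which turns serine into pyruvate, had day 5 ratios of -0.90 and -1.04, with -0.52 and -0.39 at day 8 (both days -0.71, SE 0.05, adjusted p = 0.00241). Agxt, the aminotransferase that makes glycine from glyoxylate and alanine, had -0.78 and -1.13, then -0.67 and -0.85 (both days -0.86, SE 0.08, adjusted p = 0.00323). Gldc, the decarboxylating subunit of the glycine cleavage system, had -0.29 and -0.42, then -0.54 and -0.73 (both days -0.49, SE 0.06, adjusted p = 0.0059). All 12 of these values were below 0. The Sds fall was the larger at day 5 in both replicates, and the Gldc fall the larger at day 8. Shmt1, the cytosolic hydroxymethyltransferase that interconverts serine and glycine, lay at 0.03 (interval -0.14 to 0.20).

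In histidine and tyrosine breakdown 1 enzyme each fell by over 2-fold, while the means of the neighbouring measured enzymes lay within 0.19 of 0. Histidine ammonia-lyase (Hal), which opens histidine breakdown by releasing ammonia, had day 5 ratios of -1.07 and -1.38, with -0.93 and -1.32 at day 8, and fell by 1.17 over both days (SE 0.09, adjusted p = 0.00249). The next enzyme, urocanate hydratase (Uroc1), stood at 0.19 (interval 0.05 to 0.33, adjusted p = 0.0581). Ftcd, which passes the formimino group on to folate, rose by 0.17 (SE 0.05, adjusted p = 0.0463), a call that no fit with an array left out kept (adjusted p of 0.132 to 0.182 without 1 array, and 0.0148 to 0.898 over the 12 settings; without day 5 replicate 1, 0.169; without day 5 replicate 2, 0.182; without day 8 replicate 1, 0.132; without day 8 replicate 2, 0.181). Homogentisate dioxygenase (Hgd), which opens the ring in tyrosine breakdown and whose loss causes alkaptonuria in humans, had the largest fall of the whole set: -1.17 and -1.59 at day 5 and -1.12 and -1.19 at day 8 (both days -1.27, SE 0.08, adjusted p = 0.00184). The other 4 tyrosine genes did not pass. Tyrosine aminotransferase (Tat), the entry step and a classic glucocorticoid target, lay at 0.02 (interval -0.28 to 0.32). Hpd, which supplies homogentisate, lay at 0.16 (-0.25 to 0.58), Fah, the last enzyme of the route, at 0.13 (-0.12 to 0.38), and Gstz1, the isomerase before it, at 0.03 (-0.14 to 0.20). Tat, Hpd, Fah and Gstz1 were each above 0 on replicate 1 and below 0 on replicate 2 of both days.

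In tryptophan breakdown the kynurenine route held 1 rise and 1 fall among 4 measured genes. Afmid, the formamidase that releases kynurenine, had day 5 ratios of 0.59 and 0.45, with 0.67 and 0.55 at day 8, and rose by 0.57 (SE 0.05, adjusted p = 0.00363). Kynureninase (Kynu), which cleaves the side chain further down, had -0.43 and -0.79, then -0.38 and -0.86 (both days -0.62, SE 0.11, adjusted p = 0.0155). Its call (0.000858 to 0.374 over the 12 settings) was lost without day 5 replicate 2 (adjusted p = 0.0609). Afmid was above 0 and Kynu below 0 on every array. Tryptophan dioxygenase (Tdo2), which opens the route in liver, lay at 0.17 (interval 0.04 to 0.31, adjusted p = 0.0619), and Kmo, the monooxygenase between Afmid and Kynu, at -0.16 (-0.32 to 0.01, adjusted p = 0.128).

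**Figure D3:**
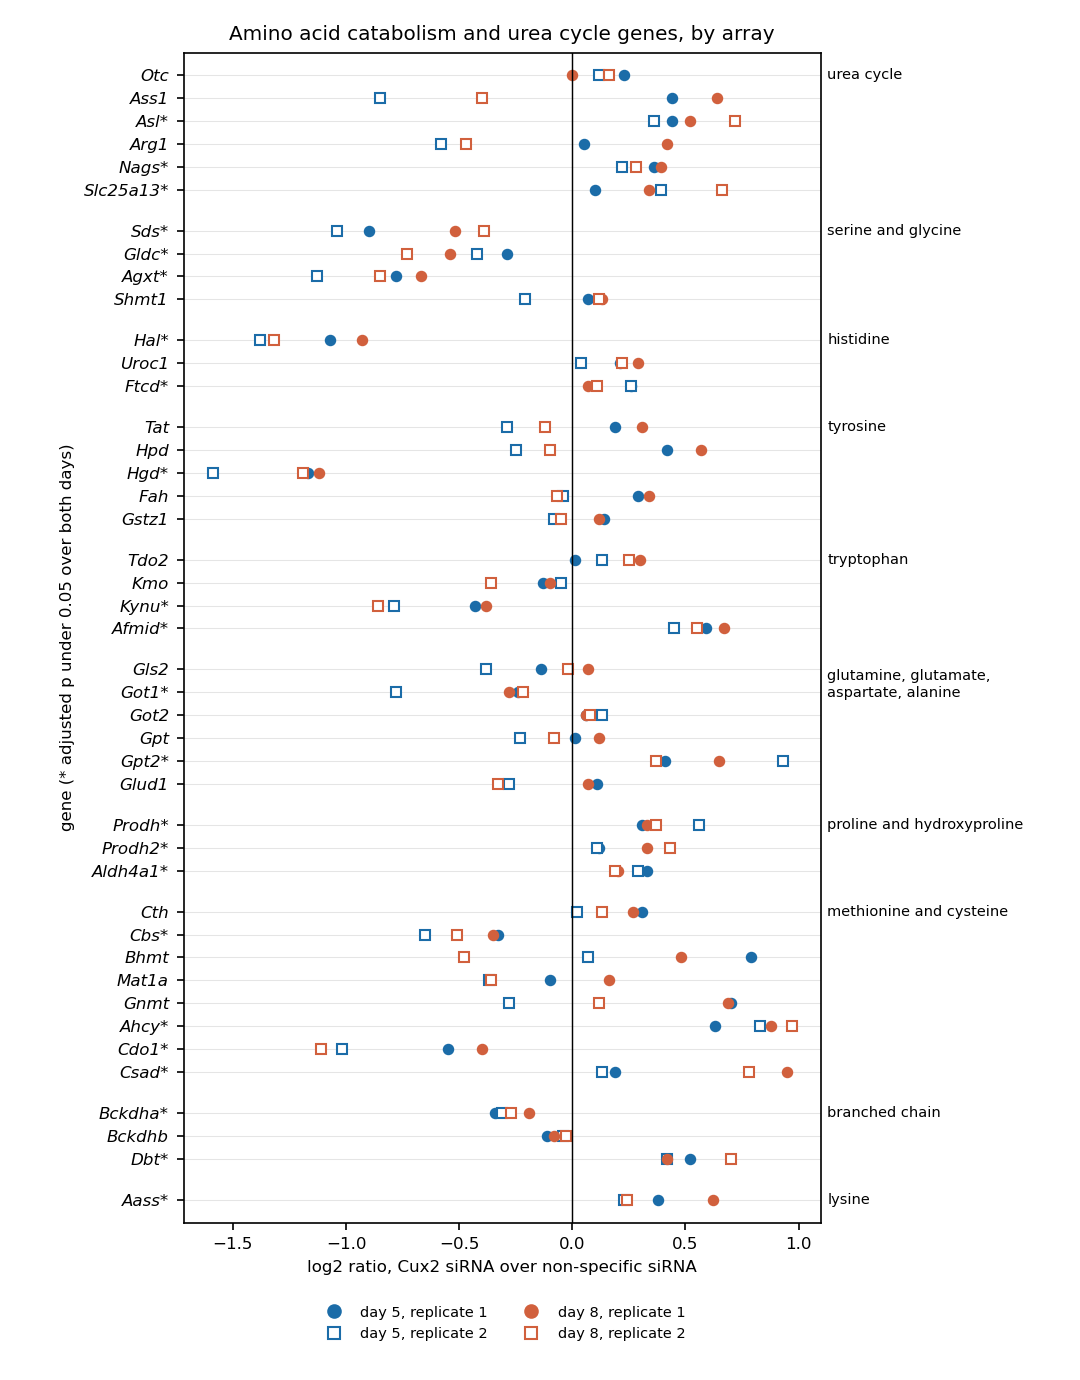
Log2 ratio (Cux2 siRNA over non-specific siRNA) of each of the 43 measured genes on each array, grouped by amino acid route: blue for day 5, orange for day 8, filled circles for replicate 1 and open squares for replicate 2, with an asterisk at genes that passed over both days. Sds, Agxt, Gldc, Hal, Hgd and Cdo1 lie left of 0 on all 4 arrays, Ahcy, Afmid, Asl and Dbt lie right of it, and Ass1 and Arg1 lie right on replicate 1 and left on replicate 2.

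Among genes that handle glutamine, glutamate, aspartate and alanine, 1 of 6 rose and 1 fell. Gpt2, the mitochondrial alanine aminotransferase, had day 5 ratios of 0.41 and 0.93, with 0.65 and 0.37 at day 8, and rose by 0.59 (SE 0.11, adjusted p = 0.0168), whereas its cytosolic partner Gpt lay at -0.05 (interval -0.22 to 0.13). Got1, the cytosolic aspartate aminotransferase, had -0.24 and -0.78, then -0.28 and -0.22, and fell by 0.38 (SE 0.10, adjusted p = 0.0444), whereas the mitochondrial Got2 lay at 0.08 (-0.04 to 0.21). Whether the paired enzymes differ from each other was not tested. The liver glutaminase Gls2 lay at -0.12 (-0.28 to 0.04) and glutamate dehydrogenase (Glud1), which frees ammonia from glutamate, at -0.11 (-0.37 to 0.15). The Gpt2 call (adjusted p of 0.00999 to 0.388 over the 12 settings) was lost without day 8 replicate 1 (0.0583). The Got1 call (0.0183 to 0.72) was lost without day 5 replicate 2 (-0.25, adjusted p = 0.0937), day 8 replicate 1 (0.128) or day 8 replicate 2 (0.121).

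All 3 proline genes and the lysine gene rose, each by less than 1.5-fold. Proline dehydrogenase (Prodh), which opens proline breakdown in mitochondria, had day 5 ratios of 0.31 and 0.56, with 0.33 and 0.37 at day 8 (both days 0.39, SE 0.06, adjusted p = 0.0117). Its relative for hydroxyproline, Prodh2, had 0.12 and 0.11, then 0.33 and 0.43 (both days 0.25, SE 0.05, adjusted p = 0.0208). Aldh4a1, the next enzyme for both substrates, had 0.33 and 0.29, then 0.20 and 0.19 (both days 0.25, SE 0.05, adjusted p = 0.0177). Aass, the bifunctional enzyme that opens lysine breakdown, had 0.38 and 0.23, then 0.62 and 0.24 (both days 0.37, SE 0.08, adjusted p = 0.028). These were small shifts with the same sign on all 4 arrays. With 1 array left out the means stayed at 0.24 to 0.26 for Aldh4a1, 0.22 to 0.27 for Prodh2, 0.33 to 0.46 for Prodh and 0.27 to 0.46 for Aass, in fits with fewer degrees of freedom. For Aldh4a1 the adjusted p was 0.0887 and 0.0814 when replicate 1 or 2 of day 5 was left out, and 0.0725 and 0.0783 when replicate 1 or 2 of day 8 was (0.00807 to 0.833 over the 12 settings). For Prodh2 it was 0.0937, 0.0948, 0.0583 and 0.1 in the same order (0.0102 to 0.787 over the settings). Prodh was lost without day 5 replicate 2 (0.0518) or day 8 replicate 2 (0.0539; 0.00358 to 0.526 over the settings), and Aass without day 5 replicate 1 (0.107), day 5 replicate 2 (0.0772) or day 8 replicate 1 (0.0719; 0.00472 to 0.778 over the settings).

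Branched-chain amino acids are committed to breakdown by a mitochondrial ketoacid dehydrogenase complex, and its subunits moved in different directions. Dbt, the transacylase core, had day 5 ratios of 0.52 and 0.42, with 0.42 and 0.70 at day 8, and rose by 0.51 (SE 0.07, adjusted p = 0.00707). Bckdha, the alpha subunit of the decarboxylase, had -0.34 and -0.31, then -0.19 and -0.27 (both days -0.27, SE 0.05, adjusted p = 0.0154), and the beta subunit Bckdhb lay at -0.06 (interval -0.19 to 0.06). The Bckdha call (0.00753 to 0.748 over the 12 settings) was lost without day 5 replicate 1 (adjusted p = 0.0761), day 5 replicate 2 (0.0734) or day 8 replicate 2 (0.0776). Of the complex's regulators, listed beside the set, the phosphatase Ppm1k that activates it fell by 0.59 (SE 0.05, adjusted p = 0.00319) and the kinase Bckdk that inhibits it fell by 0.37 (SE 0.05, adjusted p = 0.0103).

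Of 8 genes of methionine and cysteine metabolism, 2 rose, 2 fell and 4 did not pass. Ahcy, which hydrolyses adenosylhomocysteine after methyl transfer, had day 5 ratios of 0.63 and 0.83, with 0.88 and 0.97 at day 8, the largest rise of the set (both days 0.83, SE 0.06, adjusted p = 0.00196). Cystathionine beta-synthase (Cbs), which takes homocysteine towards cysteine, had -0.33 and -0.65, then -0.35 and -0.51 (both days -0.46, SE 0.07, adjusted p = 0.012). Cysteine dioxygenase (Cdo1), which oxidizes cysteine, had -0.55 and -1.02, then -0.40 and -1.11 (both days -0.77, SE 0.14, adjusted p = 0.0184). Next after Cdo1 on the way to taurine is the decarboxylase Csad, which had 0.19 and 0.13 at day 5 and 0.95 and 0.78 at day 8 (both days 0.51, SE 0.05, adjusted p = 0.00442). Thus the neighbours Cdo1 and Csad stood on opposite sides of 0 on all 4 arrays. The liver methionine adenosyltransferase Mat1a lay at -0.17 (interval -0.44 to 0.11), cystathionine gamma-lyase (Cth) at 0.18 (0.00 to 0.36), and the methyltransferases Bhmt and Gnmt at 0.21 (-0.30 to 0.73) and 0.31 (-0.19 to 0.80). Bhmt and Gnmt split by replicate: Bhmt had 0.79 and 0.48 on replicate 1 of the days against 0.07 and -0.48 on replicate 2, and Gnmt 0.70 and 0.69 against -0.28 and 0.12. The Cbs call (adjusted p of 0.00199 to 0.501 over the 12 settings) was lost without day 8 replicate 2 (0.0539), and the Cdo1 call (0.000704 to 0.6) without day 5 replicate 2 (0.0691).

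The ratios of many genes split by replicate, and thus by dye orientation. In 27 of the 43 the ratio was higher on replicate 1 than on replicate 2 on both days, against 34.2% of all genes tested. In 6 the gap, averaged over the days, was at least 0.5, against 4.79% of all genes: Ass1 (replicate 2 minus replicate 1, -1.16), Bhmt (-0.84), Gnmt (-0.77), Arg1 (-0.75), Hpd (-0.67) and Cdo1 (-0.59). The hepatocyte markers Alb and Ahsg split the same way, with 0.82 and 0.91 (Alb) and 0.88 and 1.00 (Ahsg) on replicate 1 of the days against -0.77 and -0.64 (Alb) and -0.66 and -0.88 (Ahsg) on replicate 2. Dye and control pool cannot be told apart here. Cdo1 is the only one of the 6 that had the same sign on all 4 arrays.

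**Figure D4:**
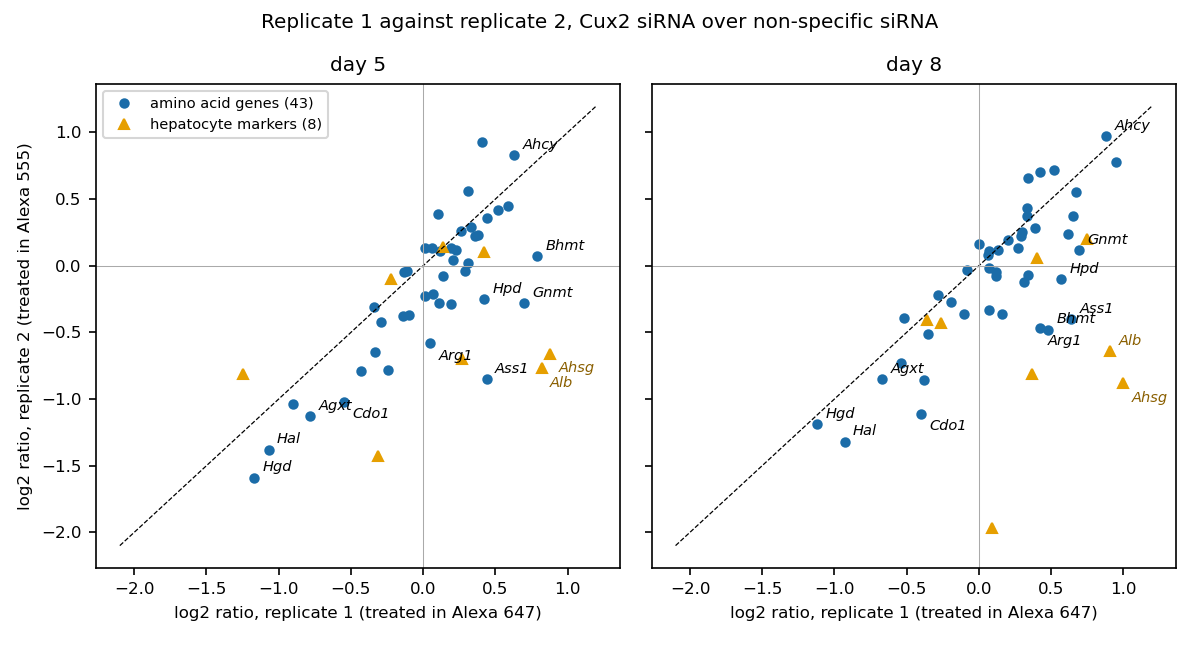
Log2 ratio on replicate 1 (treated pool in Alexa 647) against replicate 2 (treated pool in Alexa 555) at day 5 and day 8, for the 43 amino acid genes (circles) and 8 hepatocyte markers (triangles), with a dashed line of equality. Hgd, Hal and Agxt lie below the line (mean of replicate 2 minus replicate 1, -0.25, -0.35 and -0.26), and Ahcy lies above it (0.14). Ass1, Arg1, Bhmt, Gnmt and Hpd lie further below it, on the same side as Alb and Ahsg.

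Taken day by day, 13 genes passed at day 5 (7 rose and 6 fell, against 7.38% and 9.42% of all genes; 16.8% of all genes passed, and 19.3% of those above background in all readings) and 11 at day 8 (6 rose and 5 fell, against 6.27% and 8.05% of all genes; 14.3% passed, and 16.5% of those above background in all readings). Both lists held Asl, Afmid, Ahcy and Dbt among the rises and Sds, Agxt, Hal and Hgd among the falls. At day 5 Gpt2, Prodh and Aldh4a1 also rose and Cbs and Bckdha fell, and at day 8 Prodh2 and Csad rose and Gldc fell. A further 7 genes passed over both days and on neither day alone. The days differed in no gene of the set after adjustment (0 of 43, and 0% of all genes tested; 3 of the 43 and 621 of all genes at an unadjusted p under 0.05 by limma). These 3 were Csad, whose ratio was 0.87 at day 8 and 0.16 at day 5 (difference 0.71, unadjusted p = 0.00149, adjusted p = 1), Sds with -0.45 and -0.97 (difference 0.52, unadjusted p = 0.00586, adjusted p = 1) and Prodh2 with 0.38 and 0.11 (difference 0.27, unadjusted p = 0.0414, adjusted p = 1). At day 5, 4 passed if replicate 1 of that day was left out and 1 if replicate 2 was. At day 8, 2 passed without its replicate 1 and 0 without its replicate 2.

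Of 70 further enzymes of these routes 61 were measured, and 12 rose and 12 fell over both days (median -0.01). That is 39.3%, against 31.1% of all genes tested and 35.5% of those above background in all readings. The 4 largest falls were in enzymes that make amino acids and cofactors. Psat1 and Phgdh, which make serine from a glycolytic intermediate, lay below 0 on every array. Psat1 had -1.67 and -2.42 at day 5 and -1.68 and -2.40 at day 8, and Phgdh had -0.80 and -1.15, then -0.68 and -1.16. Over both days Psat1 fell by 2.04 (SE 0.17, adjusted p = 0.00289) and Phgdh by 0.95 (SE 0.11, adjusted p = 0.00504). Psph, the last enzyme of serine synthesis, rose by 0.44 (SE 0.06, adjusted p = 0.00712), so the 3 genes of that synthesis did not move as 1 block. Asparagine synthetase (Asns) fell by 1.12 (SE 0.13, adjusted p = 0.00552), and Gch1, which opens the synthesis of tetrahydrobiopterin, had a mean of -1.46 (SE 0.10, adjusted p = 0.00185). Ethe1, a mitochondrial sulfur dioxygenase, fell by 0.83 (SE 0.14, adjusted p = 0.0133), and Gatm, which makes the creatine precursor from arginine and glycine, by 0.70 (SE 0.14, adjusted p = 0.0205). The pancreas markers, which were at -3.00, -3.89, 0.58 and -3.69 on the 4 arrays in the order of day and replicate, stood beside Psat1 at -1.67, -2.42, -1.68 and -2.40. Their part in the falls of these enzymes was not tested. Without background correction the means were -0.99 for Psat1, -0.37 for Phgdh and -0.57 for Asns, while the processed signals gave -2.82 for Psat1. With median centring the calls of Psat1 (-2.05, adjusted p = 0.0543; 5.52e-05 to 0.0543 over the 12 settings), Phgdh (-0.97, adjusted p = 0.1; 0.000336 to 0.1) and Asns (-1.13, adjusted p = 0.115; 0.000298 to 0.115) were lost, while that of Gch1 was kept under all 12. The Gatm call (adjusted p of 0.00249 to 0.349 over the 12 settings) was lost without day 8 replicate 2 (0.0779), without background correction (0.0656) and with median centring (0.349).

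Amino acid transporters and regulators stood beside them. Of 15 transporters measured 6 fell and 1 rose, so that 46.7% passed, against 31.1% of all genes tested (16.3% fell and 14.8% rose). Among genes above background in all readings, as these were, 35.5% passed. Slc38a2, a sodium-coupled carrier of neutral amino acids, had day 5 ratios of -0.83 and -1.20, with -0.55 and -0.92 at day 8, and fell by 0.87 (SE 0.10, adjusted p = 0.00478). Slc7a8, an exchanger of neutral amino acids, fell by 0.62 (SE 0.10, adjusted p = 0.014), a call (0.00821 to 0.214 over the 12 settings) lost without day 5 replicate 1 (adjusted p = 0.0533), and its mean was -0.34 without background correction. The glutamate carrier Slc1a2 was the transporter that rose, by 0.43 (SE 0.06, adjusted p = 0.00758). Of 12 regulators 3 rose and 3 fell (50% passed, against 31.1% of all genes and 35.5% of those above background in all readings). Among those that rose were the homeobox factor Onecut1 (0.43, SE 0.06, adjusted p = 0.00805) and the nuclear receptor Hnf4a (0.37, SE 0.07, adjusted p = 0.019), which maintain hepatocyte gene expression. The coactivator Ppargc1a (-0.62, SE 0.11, adjusted p = 0.0167), Cebpa (-0.31, SE 0.06, adjusted p = 0.022) and the glucocorticoid receptor gene Nr3c1 (-0.20, SE 0.05, adjusted p = 0.0372) fell. The calls of Slc1a2, Onecut1, Hnf4a, Cebpa and Nr3c1 were not tried under the alternative settings. Only the brightest of several probes was read for Hnf4a, Cebpa and Nr3c1. The Ppargc1a call (0.0105 to 0.2 over the settings) was lost under 5 of them: without day 5 replicate 2 (adjusted p = 0.0667), without background correction (0.0553), with the processed signals (0.0509), with the authors' log10 values (0.0512) and with median centring (0.2). The glucagon receptor gene Gcgr lay at -0.10 (interval -0.25 to 0.05).

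**Figure D5:**
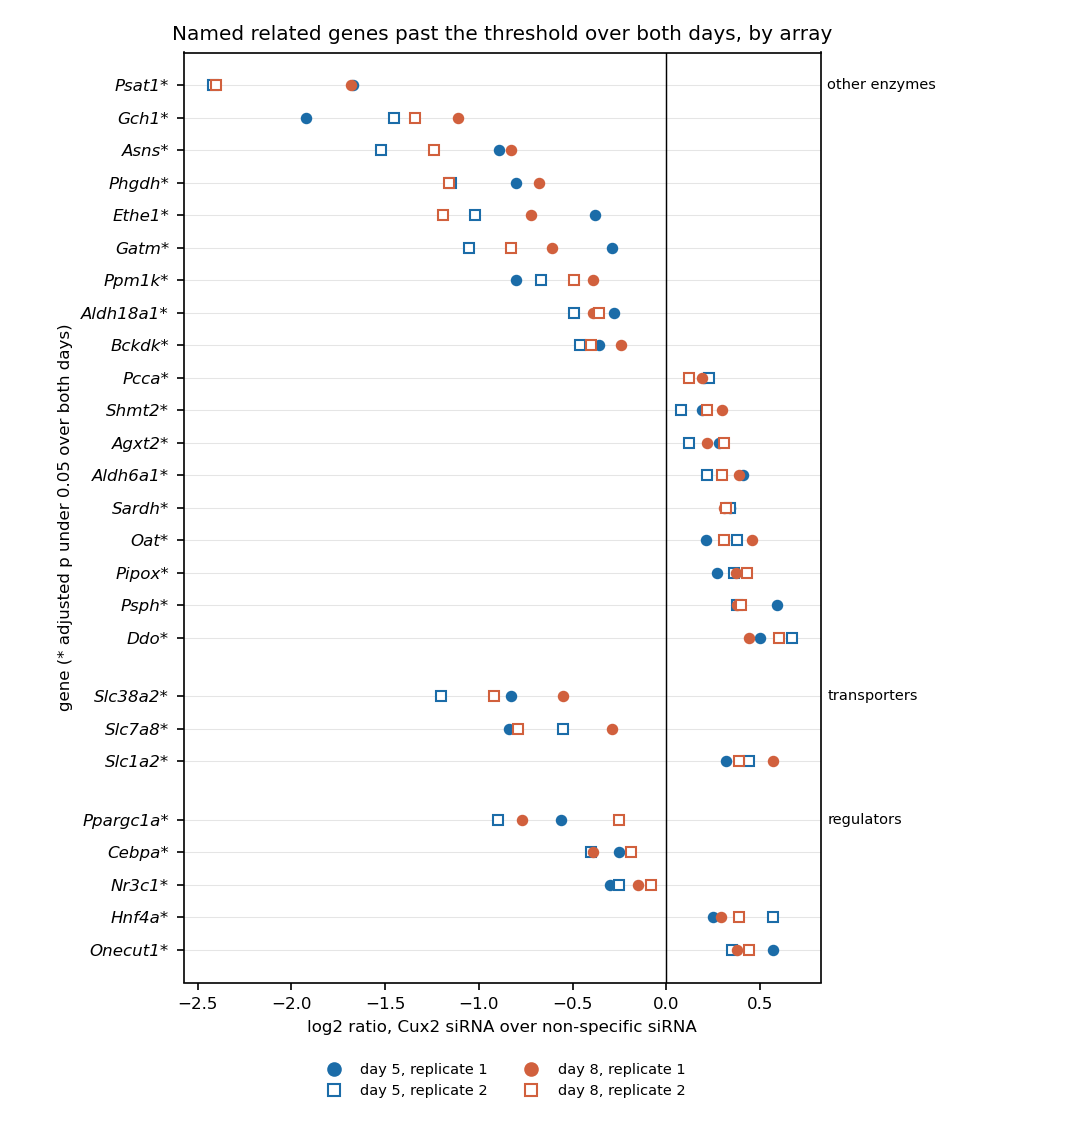
Log2 ratio (Cux2 siRNA over non-specific siRNA) on each array for the further enzymes (except Hoga1), transporters and regulators named in the text that passed over both days, in order of their mean within each class: blue for day 5, orange for day 8, filled circles for replicate 1 and open squares for replicate 2. Psat1 lies lowest, near -1.67 on replicate 1 and -2.42 on replicate 2, and Ddo, an oxidase of D-aspartate, lies highest among the enzymes at 0.55.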

How the data were processed

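Liver RNA was measured on 4 Agilent 2-colour mouse 44k arrays. Trizol RNA was amplified to antisense RNA with aminoallyl bases, to which Alexa 555 or Alexa 647 was joined, per the labels' protocols. The deposited intensity values used are the median brightness of each spot and its local background; per the file headers, version 10.7.1.1 of Feature Extraction made them. The authors' value table holds log10 ratios, equal to the scanner's log10 ratio within 1e-05 for all 45018 features on each array once turned to treated over control, with a median of 0 in each column. Other steps behind it are not stated in the labels.

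In limma 3.58.1 (R 4.3.3), background was corrected by normexp (offset 50) and ratios were normalized by loess, with 1639 control spots at weight 0 and then removed. Between 99 and 204 outlier spots per array were left out, and 0 were saturated. Spots were averaged per probe and turned to treated over control by the dyes in the labels. Of 41174 probes 23374 were named through RefSeq accessions in a GRCm38.p6 gene table, and the other 17800 kept their accession. Probes well above background in at least 2 of 8 channel readings were kept (31762), and the brightest stood for its gene, which left 25094 genes. One lmFit and eBayes fit gave the ratio at each day, the mean of the days and day 8 minus day 5 (2 residual and 2.78 prior degrees of freedom). The spread behind each p-value is that between hybridised pools and includes the dye. It was estimated as if the 4 arrays were independent, although they drew on 2 control pools. The SE and p-values over both days thus do not rest on 4 separate comparisons. Having 4 arrays limits how precise any value can be. The fit was tried on simulated data with independent noise on each array. That simulation held no dye effect and no shared control pool, so it says nothing about their influence on the calls. Promoter coordinates are those of the RefSeq table.

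Named genes are all 47 listed genes, Cux2, and those of the further enzymes, transporters and regulators that passed over both days with the same sign on 4 arrays and a log2 ratio of at least 0.58 either way. Psph, Bckdk, Ddo, Slc1a2, Gcgr, Alb, Ahsg, Ttr, Apob, the regulators under 0.58 and the genes under other observations were named after their values were seen. A few genes and 1 of the 6 promoter motifs searched are not reported here. The members and lists were chosen with earlier results of these data known. Alternatives were a fit with the replicate number, median centring, no background correction, the deposited processed intensity values, the authors' log10 values, 2 other filters, the mean of all probes and leaving out each array. Calls of single genes were followed under them only for the set and for the related genes named by the 0.58 rule. The other related genes named have no such check.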

Additional observations from a re-analysis of the deposited data

How the results depend on the processing

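Counts of members past the threshold depended on the normalization and on the arrays included. With median centring 0 of 43 passed at day 5, at day 8 and over both days, where loess gave 13, 11 and 23. The counts over all genes fell to 5, 3 and 269 with it, from 4217, 3595 and 7798, and 32.3% of the calls over both days were rises, against 47.5% with loess. The fit with the replicate number as a term (replicate block) called 23 members at day 5 and 22 at day 8 (8228 and 7451 of all genes). It lost no member over both days and added Uroc1, Hpd, Tdo2, Cth, Bhmt and Gnmt. Deviations from the day's mean correlated across genes between same-numbered arrays (r = 0.50 over 25090 genes), but the number marks the dye orientation and nothing in the labels pairs the pools. The processed intensities gave 6 members at day 5 and 6 at day 8 (2005 and 1475 of all genes), and the authors' log10 values also 6 and 6 (1999 and 1463). Without background correction 2118 of all genes passed at day 8. With 1 array left out, 1 to 10 members passed at day 5, 0 to 8 at day 8 and 12 to 17 over both days (239 to 3605, 137 to 2473 and 3880 to 5504 of all genes). Fewer arrays, and so fewer degrees of freedom, go into those fits. The difference between days called 0 members under each of the 12 settings, by limma.

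No member that passed changed sign. Fits with an array left out could not have shown this, since these members had the same sign on every array. Among those that did not pass, the lowest and highest means with 1 array left out were -0.36 and 0.28 for Ass1, -0.36 and 0.08 for Arg1, -0.04 and 0.10 for Shmt1, -0.10 and 0.14 for Tat, -0.01 and 0.33 for Hpd, -0.02 and 0.09 for Gstz1, -0.11 and 0.01 for Gpt and -0.02 and 0.45 for Bhmt. Without background correction Ass1 was 0.04 and Gpt 0.02. The cause was not tested. The median of the 43 ranged from -0.01 to 0.14 over the settings. Calls lost with the processed intensities and with the authors' values were those of Slc25a13, Ftcd, Got1, Aldh4a1 and Bckdha. Without background correction those of Slc25a13, Got1 and Cdo1 were lost and Uroc1, Tdo2 and Got2 were gained, and with the mean of all probes that of Aldh4a1 was lost. Of the 10 related genes named by the rule on size, all but Gch1 lost their call with median centring (adjusted p of 0.0543 to 0.349 by limma). Naming probes through a gene name column was not run, because the scanner tables used here hold none.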

Other observations

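For 7 of the 43 genes a second probe was kept, which allows the same RNA to be read at another place. The second probe gave ratios over both days close to the first for Bckdha (-0.26 beside -0.27), Bckdhb (-0.05 beside -0.06), Prodh2 (0.26 beside 0.25) and Shmt1 (-0.02 beside 0.03). Otc had 0.22 beside 0.13. For Aldh4a1 the second probe had 0.11 beside 0.25 and lay below 0 on day 8 replicate 2 (-0.02). For Tdo2, the tryptophan dioxygenase, the probes disagreed in sign on replicate 1 of each day, with -0.24 and -0.01 on the second probe and 0.01 and 0.30 on the first.

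Of 17 further genes of branched-chain breakdown, Bckdk and Ppm1k among them, 2 rose and 3 fell over both days, with a median of -0.01. Aldh6a1, the semialdehyde dehydrogenase of valine breakdown, rose by 0.33 (SE 0.06, adjusted p = 0.0145 by limma), and Pcca, a subunit of propionyl-CoA carboxylase, by 0.18 (SE 0.05, adjusted p = 0.0435 by limma). Of 16 further serine and glycine genes 5 rose, 3 fell and 8 did not pass. Outside serine synthesis, Sardh (0.33), Pipox (0.36), Agxt2 (0.23) and Shmt2 (0.20) rose, and Hoga1, an aldolase of hydroxyproline breakdown, fell by 0.22 (SE 0.05, adjusted p = 0.0285 by limma). Among further genes of the proline route, the ornithine aminotransferase Oat rose by 0.34 (SE 0.06, adjusted p = 0.0144 by limma). The pyrroline-5-carboxylate synthase Aldh18a1 fell by 0.38 (SE 0.06, adjusted p = 0.0105 by limma). Glutamine synthetase (Glul), which traps ammonia near the central vein, lay at 0.28 (SE 0.09, adjusted p = 0.069 by limma), with 0.14 and 0.50 at day 5 and 0.11 and 0.40 at day 8.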
